A study of Mus musculus with 33 samples.

Results

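The Siglec family was followed across all 33 RNA-seq libraries of sorted mouse microglia, the macrophages that reside in brain tissue. The members were the 7 genes Siglech, Siglec1, Siglece, Siglecf, Siglecg, Cd22 and Cd33, chosen by name from the 54146 genes in the count files, and all 7 passed the filter on low counts in each comparison. The libraries fell into 10 groups of C57BL/6 mice, all labelled female. A germline Irf8 knockout (IRF8KO) and its WT controls were profiled at 3 months (4 libraries each). At 9 months, WT, IRF8KO, 5xFAD and 5xFAD/IRF8KO mice gave 3 libraries each; 5xFAD mice express human transgenes that hold mutations of familial Alzheimer's disease, driven by a neuronal promoter. Mice with a homozygous Batf3 deletion (Batf3KO) and their own WT controls were profiled at 3 months (3 libraries each). In the conditional experiment all 7 mice were 3 months old and carried the floxed Irf8 allele, and all had been injected with tamoxifen on 5 days from postnatal day 12. In that experiment 3 libraries had the genotype IRF8flox (flox) and 4 had in addition the inducible recombinase Cx3cr1CreERT2 (Cre), with YFP-positive cells sorted through a Rosa26LSL-EYFP reporter. Cx3cr1 is active in microglia and also in other macrophages, so the driver is not limited to microglia. In Cre against flox, loss of Irf8 cannot be told apart from the Cre allele or the YFP sort that go with the Cre libraries. The labels put microglia of each brain through a non-enzymatic isolation, and p-values measure the spread between these libraries.

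Siglecs are cell-surface lectins that bind sialic acids, the sugars that cap many glycan chains, and most of them carry inhibitory motifs that recruit the phosphatases SHP-1 and SHP-2. Siglech has no such motif and signals through the adaptor DAP12 (Tyrobp). It is used as a marker that sets resting microglia apart from macrophages at the borders of the brain, and it is also made by plasmacytoid dendritic cells. Siglec1 (sialoadhesin, CD169) is a macrophage receptor of border and tissue macrophages that is induced by interferon. Siglece, Siglecf, Siglecg and Cd33 belong to the CD33-related group; Siglecf is best known from eosinophils, Siglecg and Cd22 from B cells, and human CD33 is a risk gene for Alzheimer's disease. IRF8 is a transcription factor of the myeloid lineage that commonly binds DNA together with the ETS factor PU.1.

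On GRCm38, 6 of the 7 members lie on chromosome 7 and Siglec1 lies alone on chromosome 2. Siglecf (chr7:43351341-43359531, plus strand), Siglecg (chr7:43408204-43418358, plus strand), Cd33 (chr7:43524216-43544428, minus strand) and Siglece (chr7:43651070-43660161, minus strand) form 1 cluster. Siglech (chr7:55768178-55778925, plus strand) and Cd22 (chr7:30865402-30880342, minus strand) lie apart from it, and Siglec1 spans chr2:131069220-131086765 on the minus strand. The Cd22 locus shares exonic bases with the antisense gene Gm29439, so that without strand the 2 cannot be told apart and Cd22 values are uncertain.

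Promoter windows of 300 bases, from 250 bases before to 50 bases after the annotated start, were read from RefSeq (GRCm38.p6) for 6 members, and Siglec1 had no entry. Windows are shown for Siglech, called lower in each comparison of germline Irf8 loss, for Siglece, called higher in IRF8KO against WT but not on the 5xFAD background, and for Siglecf and Cd33, which share a run of bases. Capitals mark GGAAGTG, a core letter string of PU.1-type ETS sites, on either strand.

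Siglech, chr7:55767934-55768233, plus strand: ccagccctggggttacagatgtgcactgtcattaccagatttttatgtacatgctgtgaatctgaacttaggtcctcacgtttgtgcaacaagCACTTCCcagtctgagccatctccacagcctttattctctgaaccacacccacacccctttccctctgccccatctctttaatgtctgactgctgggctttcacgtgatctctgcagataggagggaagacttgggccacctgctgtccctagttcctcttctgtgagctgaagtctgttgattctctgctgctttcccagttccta
Siglece, chr7:43660112-43660411, minus strand: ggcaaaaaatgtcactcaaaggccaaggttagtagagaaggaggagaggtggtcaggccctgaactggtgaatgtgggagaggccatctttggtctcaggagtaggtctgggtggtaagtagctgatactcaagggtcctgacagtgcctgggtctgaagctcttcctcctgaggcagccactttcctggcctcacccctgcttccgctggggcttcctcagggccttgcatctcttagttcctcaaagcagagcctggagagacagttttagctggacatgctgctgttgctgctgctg
Siglecf, chr7:43351091-43351390, plus strand: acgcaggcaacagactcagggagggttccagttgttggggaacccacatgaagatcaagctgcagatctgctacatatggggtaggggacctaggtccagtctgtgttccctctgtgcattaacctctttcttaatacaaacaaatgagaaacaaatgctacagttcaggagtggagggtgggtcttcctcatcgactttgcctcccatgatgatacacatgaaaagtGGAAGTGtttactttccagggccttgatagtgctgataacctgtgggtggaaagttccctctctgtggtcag
Cd33, chr7:43533122-43533421, minus strand: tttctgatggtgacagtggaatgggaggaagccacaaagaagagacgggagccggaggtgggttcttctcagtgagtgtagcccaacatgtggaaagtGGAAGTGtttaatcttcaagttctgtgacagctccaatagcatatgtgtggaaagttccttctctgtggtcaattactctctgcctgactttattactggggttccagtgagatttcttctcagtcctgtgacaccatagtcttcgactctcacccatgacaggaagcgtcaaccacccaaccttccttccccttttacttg

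The letters GGAAGTG were found once each in the windows of Siglech, on the opposite strand, and of Siglecf and Cd33, and in 3615 of 32851 promoter windows of the genome (11%). In Siglecf and Cd33 they sit in the same run of 16 bases, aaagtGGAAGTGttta, which begins at base 224 of the Siglecf window and at base 94 of the Cd33 window. The next longest run between any of the 15 pairs of members was 10 bases. The letters GGAA or GAAA followed by any 2 bases and then GAAA (an ETS-IRF composite and an interferon response core) are held by 2.72% and 3.44% of all windows on either strand and were in none of the members' windows. The Cd33 window lies inside the longer gene span of GENCODE M21, since the 2 annotations begin the gene at different places. A letter match describes the window and is not evidence of binding.

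Counts in genes ran from 605376, in a WT library at 9 months, to 18357762, and levels below are counts divided by library size (CPM) scaled together over the 33 libraries. At 3 months Irf8 stood at 253 to 332 CPM in WT libraries and at 104 to 185 CPM in IRF8KO libraries. At 9 months it stood at 500 to 662 CPM in the 6 libraries with Irf8 and 15.8 to 138 CPM in the 6 without. In the conditional experiment it was 951 to 1184 CPM in flox and 346, 411 and 480 CPM in Cre replicates 2 to 4. The library labelled Cre replicate 1 had 1123 CPM, which goes against its label. Each Cre against flox result of the members is therefore given with and without it. Calls of other genes in that comparison are given without it, and the main test made none with all 4 Cre libraries. Differences between conditional and germline effects use all 4 Cre libraries. Batf3 was 0.428 to 0.507 CPM in Batf3KO and 23.1 to 27.7 CPM in its controls. At 3 months it was 20.0 to 70.0 CPM in WT and 0 to 2.06 CPM in IRF8KO libraries. In the conditional experiment Batf3 lay the other way. It was 1.89 to 4.35 CPM in flox, 1.31 CPM in Cre replicate 1 and 32.1, 63.8 and 43.8 CPM in Cre replicates 2 to 4. Irf8 and Batf3 thus differ on which of these libraries resemble germline Irf8 loss, and the labels were not tested further. The summed level of 12 microglial markers was 44280 to 63598 CPM in WT and 5xFAD at 9 months and 4819 to 9960 CPM in the 6 libraries without Irf8. At 3 months neutrophil markers summed to 9357 to 65799 CPM in the WT libraries, and the IRF8KO libraries had 82093 to 204481 CPM. At 9 months they summed to at most 2.07 CPM in WT and 5xFAD but to 56590 to 165181 CPM without Irf8. Oligodendrocyte markers showed the same split at 9 months, 115 to 171 CPM against 5489 to 11639 CPM. At 3 months they were high in both groups and overlapped, 6951 to 69294 CPM in WT and 3992 to 39938 CPM in IRF8KO. The WT controls of Batf3KO had 444 to 488 CPM. In such bulk RNA, fewer cells of a type and less RNA per cell cannot be told apart. Against the female labels, Y-linked transcripts reached 10 CPM in 16 libraries, among them all 3 WT but 1 of 3 5xFAD libraries at 9 months, and Xist did in 19.

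The make-up of the family changed with germline loss of Irf8 (plot of the family's make-up by library). Per kilobase of exon, Siglech supplied 75.3% to 94.1% of the summed Siglec level in the 19 libraries of WT, 5xFAD, Batf3KO and flox mice and 92.2% to 93.7% in the 4 Cre libraries. It supplied 36.8% to 43.7% in IRF8KO at 3 months, 32.1% to 39.9% in IRF8KO and 25.9% to 32.5% in 5xFAD/IRF8KO at 9 months. Siglece supplied 3.53% to 6.25% in WT against 31.6% to 34.3% in IRF8KO at 3 months, and Cd33 supplied 3.61% to 8.88% in WT against 16.2% to 24.3% in IRF8KO. At 9 months Siglece (91.8 ± 27.7 CPM per kb, SD, n = 3) was level with Siglech (85.6 ± 20.5) in IRF8KO, and in 5xFAD/IRF8KO Cd33 (92.2 ± 35.9) had the highest mean. There Cd33 supplied 40.0%, 34.2% and 30.1% of the family by library, and in replicate 3 Siglece supplied more (40.4%). Siglec1 and Cd22 were minor members, at no more than 2.99 and 4.68 CPM per kb on average in any group.

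**Figure D1:**
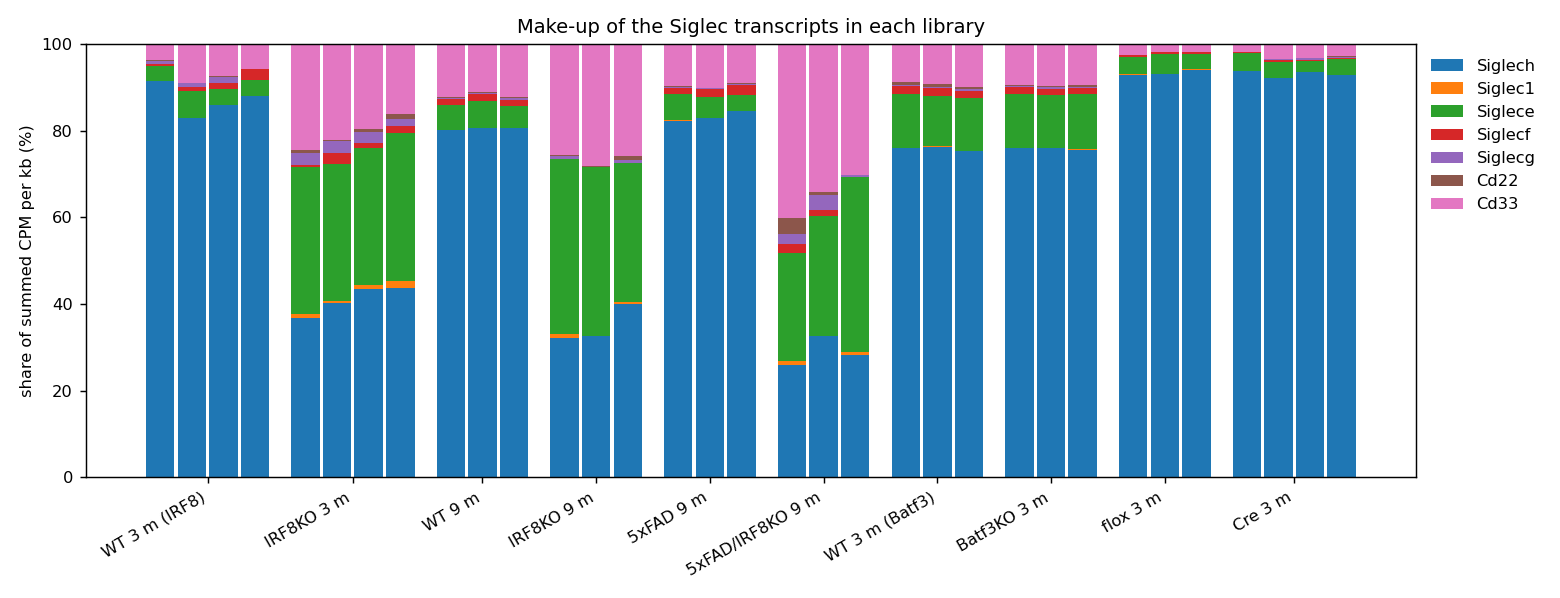
Share of each member in the summed CPM per kb of exon of the 7 Siglec genes, one stacked bar per library, grouped by genotype and age (m, months). Siglech fills 75.3% or more of the bar in libraries with Irf8 and in all Cre libraries, and 43.7% or less in germline Irf8 knockouts, where Siglece and Cd33 take more of the bar.

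Members were called changed at an adjusted p under 0.05 (edgeR quasi-likelihood test, Benjamini-Hochberg over all genes tested). At 3 months 3 of 7 members were called in IRF8KO against WT, where 7.39% of all genes were called: Siglec1 and Siglece rose and Siglech fell. At 9 months 3 of 7 were called in IRF8KO against WT, against 28.3% of all genes: Siglece rose and Siglech and Siglecf fell. In 5xFAD/IRF8KO against 5xFAD 1 of 7, Siglech, was called lower, against 27.8% of all genes. The 9-month counts stand little or not at all above these backgrounds. None was called in 5xFAD against WT (1.99% of genes), in 5xFAD/IRF8KO against IRF8KO (0.164%), in the interaction of 5xFAD and IRF8KO (0.438%) or in Batf3KO against WT (3.83%). Cre against flox gave no called member and 0% of 15512 genes, with 1407 genes at an unadjusted p under 0.05, while DESeq2 called 161 genes and limma voom 257. Without Cre replicate 1 the same comparison called 6.24% of genes and 3 of 7 members: Siglec1 fell and Siglecg and Cd33 rose. The median log2 change of all genes was 0.25 and 0.24 in the 2 comparisons of Irf8 loss at 9 months, so a change of that size is no departure from the bulk of genes there.

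**Figure D2:**
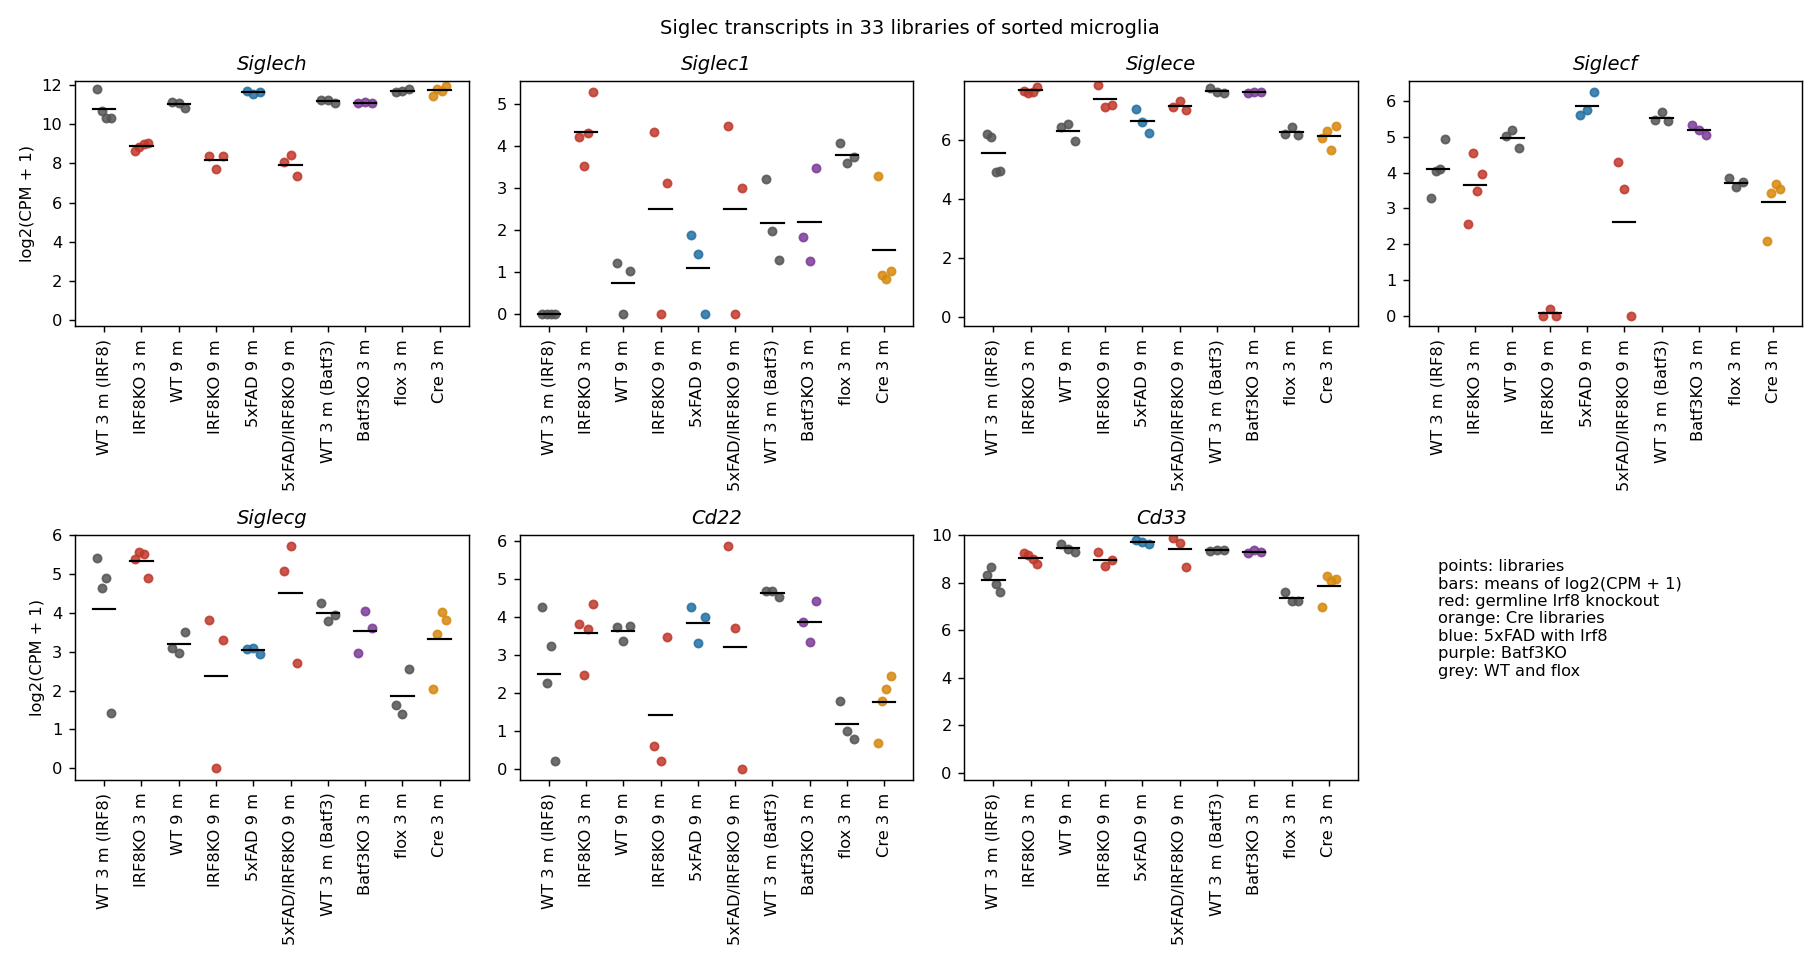
Level of each Siglec gene in each library, as log2(CPM + 1), by group; points are libraries, horizontal bars are means of the plotted values, and colours mark the genotype as written in the empty panel. Siglech is lower in all germline Irf8 knockout libraries than in all others, Siglec1 is at 0 in 4 of 4 WT libraries of the IRF8 experiment, and Siglecf is at or near 0 in IRF8KO at 9 months.

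Siglech, the DAP12-coupled receptor of resting microglia, fell in each comparison of germline Irf8 loss. At 3 months it was 3473, 1645, 1257 and 1288 CPM in the WT libraries, and the IRF8KO libraries had 397, 449, 498 and 520 CPM. The groups did not overlap, and the spread lay in WT, where replicate 1 stood above the other 3. The log2 change was -2.12 (SE 0.417, adjusted p = 0.0113), and without IRF8KO replicate 1 it was -2.04 with an adjusted p of 0.0596. At 9 months Siglech was 2233, 2165 and 1779 CPM in the WT libraries, and the IRF8KO libraries had 333, 210 and 326 CPM, a log2 change of -2.99 (SE 0.294, adjusted p = 2.17e-05). On the 5xFAD background it was 3248, 3004 and 3179 CPM with Irf8 and 263, 339 and 164 CPM without, a log2 change of -3.73 (SE 0.304, adjusted p = 6.10e-06). Across the 12 libraries at 9 months no value lay between 339 and 1779 CPM.

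The microglial marker list moved with Siglech. Of its 12 genes 6 were called lower and none higher in IRF8KO at 3 months (median log2 change -1.59), 11 lower at 9 months (median -3.13) and 12 lower in 5xFAD/IRF8KO against 5xFAD (median -3.28), beside medians of all genes of -0.02, 0.25 and 0.24. Among them P2ry12, the purinergic receptor of resting microglia, changed by -3.04, -5.05 and -4.47. Siglech reads amounted to 4.02% to 4.18% of the reads of the 12 markers in WT, against 3.35% to 4.58% in IRF8KO at 9 months, which overlap. They amounted to 5.07% to 10.8% in WT against 3.69% to 5.72% in IRF8KO at 3 months, and to 5.11% to 6.00% in 5xFAD libraries with Irf8 and 1.72% to 4.14% in those without it. Relative to the other microglial markers Siglech thus overlapped between IRF8KO and WT at both ages and lay lower in each 5xFAD/IRF8KO library than in each 5xFAD library. These ratios were not tested. Plasmacytoid dendritic cell markers, the other cell type that makes Siglech, summed to 375 to 829 CPM in the WT libraries, and the IRF8KO libraries had 172 to 335 CPM at 3 months, with Ccr9 and Klk1 at 0 in the latter. There 1 of 6 genes tested was called, Ly6d, which was lower (-2.96), and the list's median was 0.03. At 9 months these markers did not go down with Siglech. They summed to 124 to 169 CPM in WT libraries but to 157 to 266 CPM in IRF8KO libraries, with 4 of 6 called higher (median 3.46), and 3 of 6 were called higher in 5xFAD/IRF8KO against 5xFAD (median 2.48). None of the 6 was called lower in either.

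Siglech did not move in the other settings in a way the test could call. It was 2374, 2385 and 2180 CPM in the WT controls of Batf3KO and 2137, 2218 and 2172 CPM in Batf3KO, a log2 change of -0.03 (SE 0.0580, adjusted p = 0.832). In the conditional experiment it was 3144, 3246 and 3481 CPM in flox and 2742, 3528, 3338 and 3990 CPM in Cre, a log2 change of 0.08 (SE 0.194, adjusted p = 0.971), and of 0.19 (SE 0.183, adjusted p = 0.738) without Cre replicate 1. The 3 Cre libraries with lowered Irf8 therefore held Siglech above the lowest flox library (3144 CPM), and Cre replicate 3 (3338 CPM) lay below the highest flox library (3481 CPM). In 5xFAD against WT the log2 change was 0.54 (SE 0.274, adjusted p = 0.539) with no overlap between the groups, where 38.3% of all genes had none. That comparison was called with limma voom (0.49, adjusted p = 0.000462) and in a fit of only those 2 groups (0.46, adjusted p = 0.0305). Ordered by mean level, Cre, flox and 5xFAD came first, each overlapping the next of these. The WT and Batf3KO groups followed, each overlapping the next of these, but 5xFAD did not overlap the first of them, the WT controls of Batf3KO. Then came IRF8KO at 3 months, which overlapped neither neighbour, and the 2 knockout groups at 9 months, which overlapped each other. The conditional effect minus the germline effect at 3 months was 2.28 (SE 0.477, adjusted p = 0.00884), in a test in which 7.04% of genes were called.

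Siglec1, the sialoadhesin of border and tissue macrophages, rose in IRF8KO at 3 months. All 4 WT libraries had 0 reads, and the IRF8KO libraries had 94, 51, 230 and 210 reads (17.6, 10.6, 19.0 and 38.2 CPM). With 3 counts over the WT group as the floor (0.0904 CPM), the level was at least 229-fold higher in IRF8KO, and the call had an adjusted p of 0.00256. Siglec1 was not at 0 in the control groups of the other 3-month experiments. It was 11.1 to 15.9 CPM in flox, within the range of IRF8KO, and 1.42 to 8.32 CPM in the WT controls of Batf3KO. This difference between experiments was not tested. At 9 months the groups overlapped. Siglec1 was 1.31, 0 and 1.04 CPM in the WT libraries, and the IRF8KO libraries had 19.4, 0 and 7.74 CPM. It was 2.68, 1.70 and 0 CPM in the 5xFAD libraries, and the 5xFAD/IRF8KO libraries had 21.4, 0 and 7.04 CPM. In each knockout group 2 libraries stood above all 6 libraries with Irf8 and the remaining library, replicate 2, had no read at all. The log2 change was 3.28 (SE 2.17, adjusted p = 0.287) in IRF8KO and 2.48 (SE 2.01, adjusted p = 0.398) in 5xFAD/IRF8KO against 5xFAD, and neither was called. The difference between the 9-month and 3-month effects was -6.78 (SE 2.27, adjusted p = 0.0433). That call was kept without WT replicate 1 at 3 months, WT replicate 2 or IRF8KO replicate 1 or 2 at 9 months, and lost without any 1 of the other 10 libraries (-6.99 to -5.62) and with limma voom (-5.73, adjusted p = 0.0924).

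In the conditional experiment Siglec1 was lower in the 3 Cre libraries with lowered Irf8. Batf3 was higher in them than in flox (log2 change 3.78, SE 0.305, adjusted p = 3.72e-08), opposite to its fall in IRF8KO at 3 months (-5.33). The flox libraries had 15.9, 11.1 and 12.3 CPM. Cre replicates 2, 3 and 4 had 0.886, 0.770 and 1.03 CPM, and Cre replicate 1, the library with Irf8 at the flox level, had 8.80 CPM. With all 4 Cre libraries the log2 change was -2.22 (SE 0.652, adjusted p = 0.275), not called by edgeR with the filter on low counts. It was called by edgeR without that filter (-2.23, adjusted p = 3.70e-09) and by limma voom (-3.30, adjusted p = 0.00721). Without Cre replicate 1 it was -3.79 (SE 0.356, adjusted p = 3.60e-07), a level 14.1-fold lower than in flox. The difference between the conditional and germline effects was -12.53 (SE 1.61, adjusted p = 0.000818), a fitted value that depends on how the 0 reads of the WT group are handled and is no measure of size. In the Batf3 experiment Siglec1 was 8.32, 2.95 and 1.42 CPM in the WT libraries, and the Batf3KO libraries had 2.54, 1.41 and 10.2 CPM, which overlap (log2 change 0.22, SE 0.644, adjusted p = 0.903).

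Markers of border macrophages, the cells known for Siglec1, moved with it in the germline comparison at 3 months and in the conditional experiment, but not in the Batf3 experiment (plot of Siglec1 against border macrophage markers). The list of Mrc1, Cd163, Lyve1, Pf4, F13a1, Cbr2, Ms4a7 and Folr2 summed to 46.3 to 210 CPM in the WT libraries, and the IRF8KO libraries had 1003 to 1503 CPM at 3 months, where 2 of 7 genes tested were called higher, Mrc1 (4.47) and Pf4 (3.97). At 9 months it summed to 6.22 to 12.3 CPM in WT, and 746 to 864 CPM without Irf8. On the 5xFAD background the sum was 12.6 to 31.3 CPM with Irf8 and 1209 to 1351 CPM without it. In each knockout comparison 5 of 7 were called higher. Folr2 was at 0 in both knockout groups at 9 months, and Cbr2 was at 0 in all IRF8KO libraries at that age. In the conditional experiment the sum was 110, 112 and 147 CPM in flox, 189 CPM in Cre replicate 1 and 9.45, 5.94 and 11.7 CPM in Cre replicates 2, 3 and 4. Without Cre replicate 1, 3 of 4 genes tested were called lower: Pf4 (-5.58), Cbr2 (-3.39) and Mrc1 (-3.03). Siglec1 reads were 8.36% to 14.5% of the list's reads in flox and lay within that range in each of Cre replicates 2, 3 and 4, from 8.80% upward. In Cre replicate 1 they were 4.67%, below that range. They were 0.702% to 2.66% in IRF8KO at 3 months. They were 0% in the 4 WT libraries of that experiment and in replicate 2 of both knockout groups at 9 months, where the markers were well above 0. In the Batf3 experiment the ratio ranged from 15.3% to 87.1% in WT libraries and from 16.4% to 196% in Batf3KO libraries. Batf3KO replicate 3, with 10.2 CPM of Siglec1, had 5.22 CPM of border markers, the lowest sum of that experiment. The part of border macrophages in the level of Siglec1 was not tested.

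**Figure D3:**
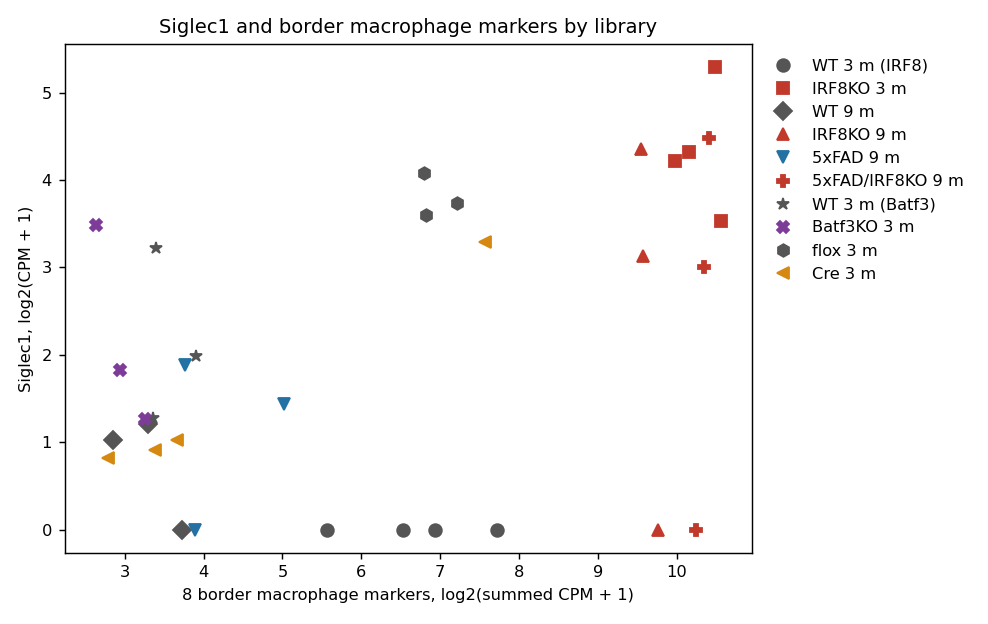
Siglec1 against the summed level of 8 border macrophage markers in each library, both as log2(CPM + 1), with symbols for groups and colours for genotype (red, germline Irf8 knockout; orange, Cre; blue, 5xFAD; purple, Batf3KO; grey, WT and flox; m, months). The Cre library at upper centre is replicate 1 (189 CPM of markers, 8.80 CPM of Siglec1), and the red points on the zero line are replicate 2 of the knockout groups at 9 months.

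Interferon-response genes were set beside Siglec1, itself an interferon-induced gene. At 3 months the list's median log2 change in IRF8KO was 1.01, and none was called lower. At 9 months 2 of 13 tested rose in IRF8KO, Rsad2 (8.48) and Isg15 (3.87), and 1 fell. In 5xFAD/IRF8KO against 5xFAD 3 fell (Mx1, Ifit2 and Bst2). In Cre replicates 2 to 4 against flox 4 of 12 were called lower and none higher, Oasl2 (-1.51), Irf7 (-1.13), Isg15 (-1.08) and Ifit3 (-1.03).

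Siglece, an inhibitory CD33-related receptor of microglia and other myeloid cells, was called higher in IRF8KO at both ages. At 3 months it was 73.3, 67.7, 29.1 and 30.2 CPM in the WT libraries, and the IRF8KO libraries had 200, 193, 198 and 223 CPM. The groups did not overlap and the IRF8KO libraries lay close together, with a log2 change of 1.95 (SE 0.380, adjusted p = 0.0110), 3.83-fold. At 9 months it was 85.7, 91.3 and 62.2 CPM in the WT libraries, and the IRF8KO libraries had 229, 137 and 144 CPM. That log2 change of 0.92 (SE 0.295, adjusted p = 0.0348) passed the threshold with all libraries. Leaving out any 1 of the 3 WT or 3 IRF8KO libraries gave 0.55 to 1.01 and no call, and without the filter (0.86), with limma voom (0.71) or with Y-linked expression as a covariate (0.56) there was none either. On the 5xFAD background the values overlapped, 130, 96.7 and 74.6 CPM against 137, 159 and 128 CPM (log2 change 0.38, SE 0.292, adjusted p = 0.370). Siglece reads amounted to 0.140% to 0.176% of the microglial marker reads in WT, against 2.02% to 2.84% in IRF8KO at 9 months. Neutrophil and monocyte markers, from cells that also make Siglece, moved with it in IRF8KO against WT. All 10 neutrophil markers were called higher at 9 months and 4 of 10 at 3 months. In 5xFAD/IRF8KO against 5xFAD, where Siglece was not called, all 10 neutrophil markers and 4 of 6 monocyte markers tested were called higher too. The part of these cells was not tested. In the other WT group at 3 months, that of the Batf3 experiment, Siglece was 213, 198 and 192 CPM with neutrophil markers at no more than 4.72 CPM, in the range of IRF8KO, and this difference between experiments was not tested. There was no call in Batf3KO (log2 change 0.00, SE 0.0746, adjusted p = 0.987) or in Cre (-0.10, SE 0.206, adjusted p = 0.965; -0.05 without replicate 1). The 9-month effect of IRF8KO minus the 3-month effect was -0.95 (SE 0.520, adjusted p = 0.199), called with limma voom (-1.31, adjusted p = 0.0490). The conditional effect minus the germline effect at 3 months was -1.97 (SE 0.441, adjusted p = 0.0128).

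Cd33, the mouse counterpart of the human risk gene, was not called in any of the germline comparisons. At 3 months it was 315, 405, 244 and 192 CPM in the WT libraries, and the IRF8KO libraries had 601, 567, 512 and 444 CPM, with no overlap, as in 19.5% of all genes. The log2 change was 0.80 (SE 0.323, adjusted p = 0.152), called only when all 33 libraries were fitted in 1 model (0.88, adjusted p = 0.0156). At 9 months it pointed the other way, 787, 688 and 619 CPM in the WT libraries, and the IRF8KO libraries had 614, 417 and 487 CPM (log2 change -0.63, SE 0.285, adjusted p = 0.120), again with no overlap, as in 49.3% of genes. The difference between the 2 effects was called (-1.36, SE 0.429, adjusted p = 0.0290, in a test that called 24.0% of genes), with a median of 0.40 over all genes. It was lost without IRF8KO replicate 1 at 3 months (-1.25), WT replicate 1 (-1.24) or 2 (-1.34) at 9 months, or IRF8KO replicate 2 (-1.23) or 3 (-1.29) at 9 months, and also without the filter on low counts (-1.39, adjusted p = 0.0619). Against the microglial markers Cd33 was higher without Irf8 at both ages, 0.979% to 1.49% of their reads in WT against 3.46% to 7.22% in IRF8KO at 3 months and 1.33% to 1.45% against 6.16% to 8.64% at 9 months. The summed level of those markers was itself lower in IRF8KO at both ages, and these ratios were not tested. In the conditional experiment Cd33 was 193, 150 and 148 CPM in flox, 123 CPM in Cre replicate 1 and 311, 266 and 282 CPM in Cre replicates 2 to 4. With all libraries the log2 change was 0.63 (SE 0.282, adjusted p = 0.534), and without replicate 1 it was 0.86 (SE 0.172, adjusted p = 0.00268), with no overlap, as in 19.7% of genes. On the 5xFAD background Cd33 was 878, 835 and 779 CPM with Irf8 and 931, 819 and 401 CPM without it, which overlap (log2 change -0.32, SE 0.284, adjusted p = 0.440). The Batf3 experiment held it at 637 to 668 CPM in WT and 608 to 653 CPM in Batf3KO (log2 change -0.00, SE 0.0703, adjusted p = 0.996). Neutrophil markers in the Cre and flox libraries were at no more than 111 CPM in sum.

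**Figure D4:**
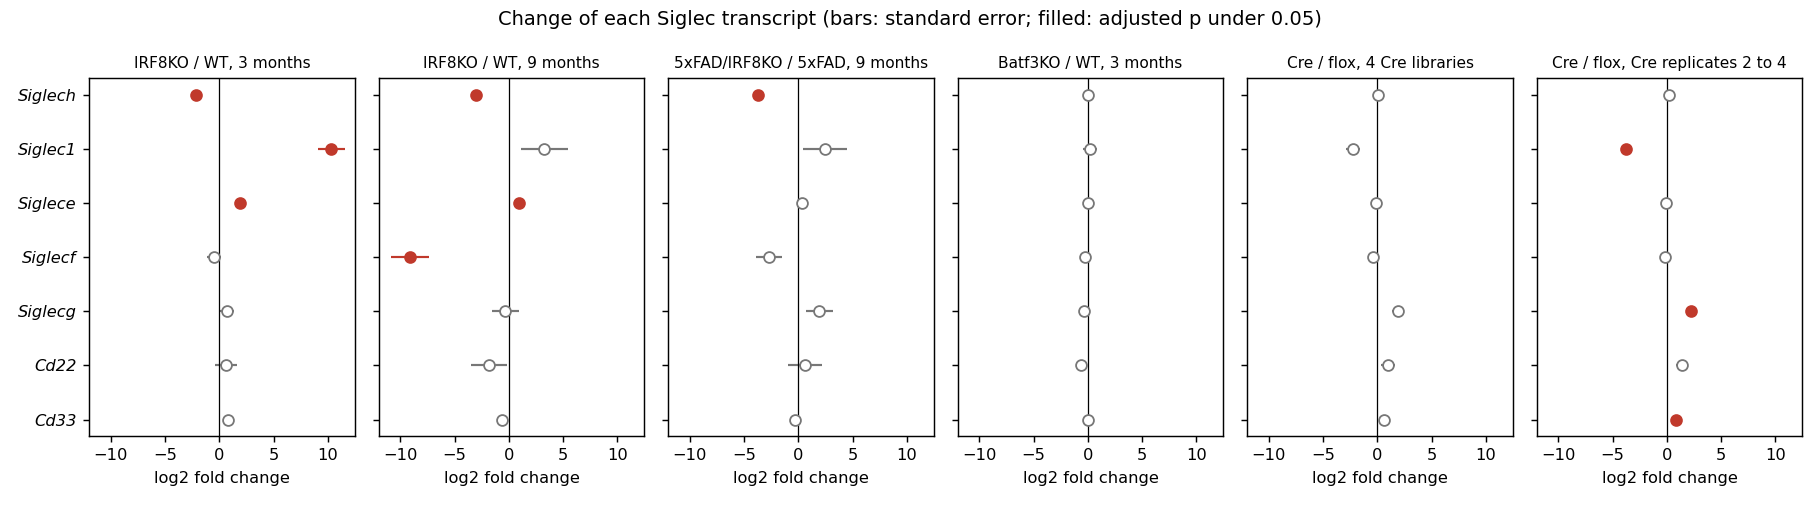
Log2 fold change of each member with its standard error in 6 comparisons (edgeR quasi-likelihood test); filled red points have an adjusted p under 0.05. Siglech is shifted left in the 3 germline comparisons and stands near 0 in Batf3KO and Cre, while Siglec1 is shifted right in IRF8KO at 3 months and left in Cre replicates 2 to 4.

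Siglecf, a CD33-related receptor best known from eosinophils, was nearly absent in IRF8KO at 9 months. The 3 WT libraries had 239, 84 and 24 reads (31.4, 35.7 and 24.9 CPM) and the 3 IRF8KO libraries had 0, 1 and 0 reads. The ratio of IRF8KO to WT was 0.00123, with an exact 95% counting interval of 3.11e-05 to 0.00692 that covers counting error only, and the adjusted p was 0.00250. At 3 months the groups overlapped, 8.82, 15.5, 16.3 and 29.9 CPM in the WT libraries, and the IRF8KO libraries had 4.87, 22.6, 10.3 and 14.7 CPM (log2 change -0.49, SE 0.609, adjusted p = 0.686). The difference between the 2 effects was -8.53 (SE 1.25, adjusted p = 0.000117). On the 5xFAD background the libraries without Irf8 were split. Siglecf was 48.1, 52.6 and 75.1 CPM in the 5xFAD libraries, and the 5xFAD/IRF8KO libraries had 18.5, 10.7 and 0 CPM, a log2 change of -2.70 (SE 1.19, adjusted p = 0.113) that was called without 5xFAD/IRF8KO replicate 3 (-2.12, adjusted p = 0.0299), without the filter (-2.68), with limma voom (-4.30) and in the model of all 33 libraries (-2.58). Between the 2 knockout groups the change was 7.26 (SE 1.69, adjusted p = 0.124), called without that same library (7.83, adjusted p = 0.00536) with DESeq2 (7.55, adjusted p = 0.000686), without the filter (7.30) and in the model of all 33 libraries. Eosinophil markers were near 0: Prg2 had no read in any group, and the 6 markers summed to at most 3.82 CPM in WT and 5xFAD at 9 months, where Siglecf stood at 24.9 to 75.1 CPM. The eosinophil marker Ccr3, at a mean of 2.63 CPM in WT, was at 0 in both knockout groups at 9 months. Siglecf was 43.6, 50.4 and 42.2 CPM in the WT libraries, and the Batf3KO libraries had 39.6, 35.7 and 32.5 CPM, without overlap and without a call (log2 change -0.28, SE 0.125, adjusted p = 0.255). It was 13.4, 11.0 and 12.3 CPM in flox, 3.21 CPM in Cre replicate 1 and 9.84, 11.8 and 10.6 CPM in replicates 2 to 4 (-0.42 with and -0.14 without replicate 1, neither called).

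Siglecg and Cd22, the inhibitory receptors best known from B cells, were low and variable. Siglecg was 41.3, 23.7, 29.0 and 1.66 CPM in the WT libraries, and the IRF8KO libraries had 41.0, 46.4, 44.3 and 28.9 CPM at 3 months (log2 change 0.69, SE 0.661, adjusted p = 0.584). At 9 months it was 6.79 to 10.4 CPM in WT, while IRF8KO libraries had 13.2, 0 and 8.84 CPM. Siglecg was 32.7, 51.8 and 5.53 CPM in 5xFAD/IRF8KO, with no call in any comparison there. The clearest difference of Siglecg was in the conditional experiment. It was 2.07, 1.63 and 4.83 CPM in flox, 3.09 CPM in Cre replicate 1 and 9.94, 15.1 and 13.1 CPM in Cre replicates 2 to 4. The log2 change was 1.91 (SE 0.522, adjusted p = 0.245; 0.0174 with DESeq2 and 5.63e-06 without the filter), and without replicate 1 it was 2.21 (SE 0.362, adjusted p = 0.000315), 4.64-fold. Cd22 was 2.42, 0.980 and 0.707 CPM in flox, 0.595 CPM in Cre replicate 1 and 2.46, 3.30 and 4.41 CPM in the others. It was not called with replicate 1 (log2 change 1.02, SE 0.645, adjusted p = 0.737) or without it (1.35, SE 0.528, adjusted p = 0.179). In this experiment B-cell markers moved with them, from 239 to 325 CPM in flox and 264 CPM in Cre replicate 1 to 482 to 613 CPM in the others. Of 3 tested, 2 were called higher without replicate 1 and none with it. Vpreb3 was at 0 in both groups, Ms4a1 was at 0 in flox and Pax5 in Cre, and the part of B cells was not tested. In IRF8KO at 3 months B-cell markers lay the other way from Siglecg, with 2 of 8 called lower and none higher (median -1.33), and sums of 602 to 2344 CPM in WT libraries and 439 to 630 CPM in IRF8KO libraries.

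Cd22 in the other experiments ranged from 0.151 to 18.2 CPM within WT alone at 3 months and from 0 to 57.1 CPM within 5xFAD/IRF8KO. The IRF8KO libraries at 9 months had 0.513, 0.145 and 10.1 CPM against 9.34 to 12.4 CPM in WT (log2 change -1.81, SE 1.67, adjusted p = 0.460). In Batf3KO it was 13.6, 9.06 and 20.3 CPM against 24.6, 24.3 and 21.9 CPM in WT, with no overlap, as in 24.0% of genes. That log2 change of -0.66 (SE 0.224, adjusted p = 0.127) was called without Batf3KO replicate 3 (-0.99, adjusted p = 0.0180), without the filter (-0.66, adjusted p = 0.00935) and with limma voom (-0.85, adjusted p = 0.0209). The 8 B-cell markers summed to 842 to 1025 CPM in WT and to 706 to 780 CPM in Batf3KO, lower as Cd22 was. None of the 3 tested was called (median log2 change -0.29), and Ms4a1 was at 0 in both groups. The part of B cells was not tested.

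No member was called for the 5xFAD transgene alone. In 5xFAD against WT the members had log2 changes of -0.25 to 0.86 with a median of 0.26, beside 0.00 for all genes, and Siglecf (0.85, SE 1.13, adjusted p = 0.974) was called only in a fit of those 2 groups (0.75, adjusted p = 0.0162). In the interaction of 5xFAD and IRF8KO the values were -0.74 (SE 0.387, adjusted p = 0.424) for Siglech and 6.41 (SE 2.01, adjusted p = 0.158) for Siglecf. The latter was called with DESeq2 (6.76, adjusted p = 0.0280), without the filter (6.48, adjusted p = 0.00691), in the model of all 33 libraries (6.47, adjusted p = 0.0100) and without 5xFAD/IRF8KO replicate 3 (6.98, adjusted p = 0.0166). These comparisons share their control libraries with the others at 9 months.

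Genes that make, cap or remove the sialic acid ligands, and those that carry the receptors' signals, were taken as lists. Of 20 sialyltransferases, the enzymes that add sialic acid to glycans, 1 of 15 tested was called lower in IRF8KO at 3 months. At 9 months 2 were higher and 2 lower of 17, and in 5xFAD/IRF8KO against 5xFAD 3 were higher and 2 lower of 17. These counts are near the shares called over all genes (7.39%, 28.3% and 27.8%). St8sia3 (10.24) and St6galnac3 (9.07), both at 0 in WT, rose in IRF8KO at 9 months. In 5xFAD/IRF8KO against 5xFAD the rises included St6galnac5 (5.46) and St8sia4 (2.63), and St8sia4 also rose in Batf3KO (0.87, adjusted p = 0.0178). St6galnac4, which adds sialic acid to O-linked chains, fell in all 3 comparisons of germline Irf8 loss (-1.52, -3.09 and -2.95). St3gal6 fell at 9 months (-2.01 in IRF8KO and -1.80 on 5xFAD). In Cre replicates 2 to 4 against flox St6galnac4 rose instead (1.85, SE 0.182, adjusted p = 6.72e-07), while St6gal1 (-1.13) and St3gal1 (-1.43) fell. The difference of St6galnac4 between the conditional and germline effects was 3.19 (SE 0.588, adjusted p = 0.00415). Of the 6 genes of sialic acid synthesis and transport none was called at 3 months, Cmas rose in IRF8KO at 9 months (0.91) and the transporter Slc35a1 fell in 5xFAD/IRF8KO against 5xFAD (-1.40). Of the 4 sialidases none was called in the comparisons of genotypes.

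Among 10 signalling partners of Siglecs, 2 rose and none fell in IRF8KO at 3 months, the kinase Syk (1.84) and the ubiquitin ligase Cbl (1.59), and the list's median was 0.65. At 9 months Hcst (2.40) and Ptpn11, which encodes SHP-2 (1.69), rose in IRF8KO and Plcg2 (-1.74), Lyn (-1.31) and Vav1 (-1.25) fell. Tyrobp, the adaptor that Siglech signals through, rose in 5xFAD against WT (2.09, SE 0.306, adjusted p = 0.0123), as did Hcst (1.76, adjusted p = 0.0454). Tyrobp fell in 5xFAD/IRF8KO against 5xFAD (-1.54, SE 0.301, adjusted p = 0.00277), where Cbl (1.70) and Ptpn11 (1.30) rose. In Cre replicates 2 to 4 against flox 1 of the 10 was called, Hcst, which was lower (-1.26). The other 2 Siglec genes measured were the myelin protein gene Mag and Siglec15. Siglec15 had no read in 8 of 10 groups, and neither was called in any comparison of genotypes.

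The genes most like Siglech over the 33 libraries were Fcgr1, a high-affinity IgG receptor (Pearson r = 0.976 of log2(CPM + 1)), Susd3 (0.966) and C1qc, a complement component of microglia (0.962), among 14053 genes compared. Those most like Siglec1 were Man2a1 (0.801), Tgfbi (0.770) and Htra3 (0.748). Among the members themselves Siglecf was most like Siglech (0.625), and Siglece was least (-0.409). The libraries share sorting, depth and cell content by experiment, so these values are descriptions.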

How the data were processed

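RNA-seq was measured in 33 libraries of sorted microglia, made with SMART-Seq v4 and Nextera XT and without molecular identifiers, per the labels' protocols. The deposited files hold raw counts per gene, and their unstranded column was used as the authors deposited it; they have the layout of STAR gene counts with 4 summary lines, which stayed out of library sizes. The submitters' processing notes name bcl2fastq, STAR 2.5.2b, Picard 2.17.11, Subread, featureCounts and mm10, with no role or order. Reads in genes were 47.3% to 78.6% of those in the files. Of 54146 gene IDs, 54079 matched GENCODE M21 without the version number.

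Changes come from edgeR 4.0.16 (filterByExpr, TMM, quasi-likelihood test, in R 4.3.3), adjusted by Benjamini-Hochberg over all genes tested, each comparison in the fit of its own experiment, the 12 libraries at 9 months in 1 model. Levels are CPM scaled over all 33 libraries, so their ratios can differ from the fitted changes and from means of those fits. Folds against 0 reads use a floor of 3 counts over the group, and the 95% interval and the floor cover counting error only. The fit was tested on simulated data. Replicate numbers did not enter the main model. Alternatives were DESeq2 1.42.0, limma 3.58.1 (voom with quality weights), DESeq2-type size factors, no filter, 1 model of all libraries, a replicate block, only the 2 groups compared, a Y-linked covariate and leaving out each library. The members, lists and tests were chosen with earlier results of these data known. In each list at most 3 rises and 3 falls with 5 CPM or more in a group were to be named, and the 3 genes most like Siglech and Siglec1; Mx1, Ifit2, Ccr3 and the uncalled genes named were chosen after their values were seen. Results for some list genes are not reported here.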

Additional observations from a re-analysis of the deposited data

Results flagged for a closer look

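Siglec1 stood apart in the library labelled Cre replicate 1, at 8.80 CPM where the nearest Cre library had 1.03 CPM, a gap of 0.967 of the group's range. It was the 1 such library among 21 pairs of a member and a group of 4 libraries, and chance gives about 1 in 20. In the same library Irf8 was at the flox level (1123 CPM) and border macrophage markers summed to 189 CPM.

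The effect of germline Irf8 loss differed between ages by the test of the difference for Siglec1 (-6.78), Siglecf (-8.53) and Cd33 (-1.36), the 9-month effect minus the 3-month effect on the log2 scale. The conditional effect minus the germline effect at 3 months differed from 0 for Siglech (2.28), Siglec1 (-12.53) and Siglece (-1.97). The fitted values of Siglec1 and Siglecf involve groups at or near 0 reads, so their sizes depend on the model's prior count. The 9-month and 3-month libraries also differed in their neutrophil and microglial markers, and so did the conditional and germline libraries, which were all 3 months old. The part of these markers was not tested.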

How the results depend on the processing

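Of 1083 member values under alternatives, 977 kept their direction and their side of the threshold, 27 lost a call, 29 gained one and 50 changed sign, none of these 50 with a call in either fit. The 13 called results kept their sign under the alternatives run. The cause of the changes below was not tested.

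Replicate numbers did not pair the libraries (correlations of -0.153 to 0.167 between same-numbered libraries), and with a replicate block the number of called members stayed at 3, 3, 1, 0, 0, 0, 0 and 0 in the comparisons of genotypes and 3 and 3 in the differences of effects. Under the block Siglec1 was -0.03 in 5xFAD/IRF8KO against IRF8KO, -0.22 in 5xFAD/IRF8KO against 5xFAD and -0.03 in Batf3KO, Siglech was -0.03 in Cre, and Siglecf was -0.25 in the conditional minus germline effect, all with the opposite sign.

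In 5xFAD/IRF8KO against 5xFAD 2 members were called without the filter, with limma voom and with all 33 libraries, and 1 to 2 on leaving out a library. In 5xFAD/IRF8KO against IRF8KO and in the interaction, 1 was called without the filter, with DESeq2 and with all 33 libraries, and 0 to 1 on leaving out a library. In 5xFAD against WT limma voom called 1 and the fit of 2 groups called 2. In Batf3KO no filter and limma voom called 1, and leaving out a library gave 0 to 1. In Cre against flox no filter called 2, DESeq2 and limma voom 1, and leaving out a library 0 to 3. For the 9-month minus 3-month effect leaving out a library gave 1 to 4, with 1 without IRF8KO replicate 1 at 3 months or WT replicate 1 at 9 months and 4 without WT replicate 1 at 3 months.

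Sign changes without a call were as follows. Siglec1 in 5xFAD/IRF8KO against IRF8KO was -0.00 with DESeq2-type size factors and DESeq2 and -0.70 with limma voom, which also gave -0.06 for Siglec1 and -1.52 for Cd22 in 5xFAD/IRF8KO against 5xFAD, -0.22 for Siglec1 in Batf3KO and -0.24 for Cd22 in the conditional minus germline effect. With the Y-linked covariate Siglec1 was -1.20 in IRF8KO at 9 months, -7.60 in 5xFAD and 11.93 in the interaction, Siglece was -0.37 in 5xFAD, 0.05 in 5xFAD/IRF8KO against IRF8KO and 0.43 in the interaction, and Cd33 was -0.06 in 5xFAD. In Batf3KO Cd33 was 0.01 without the filter and 0.00 with DESeq2 and limma voom. With all 33 libraries Siglece was -0.05 in Batf3KO and Siglecf -0.02 in the conditional minus germline effect.

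Leaving out 1 library gave ranges that crossed 0 for Siglecg in IRF8KO at 9 months (-1.14 to 0.14), Cd22 in 5xFAD/IRF8KO against 5xFAD (-1.31 to 1.19) and in 5xFAD (-0.03 to 0.47), Siglech (-0.46 to 0.04) and Siglec1 (-1.34 to 1.23) in 5xFAD/IRF8KO against IRF8KO and Siglec1 in the interaction (-2.21 to 0.40). They also did in Batf3KO for Siglec1 (-1.02 to 1.14), Siglece (-0.01 to 0.03) and Cd33 (-0.04 to 0.03), in Cre for Siglech (-0.02 to 0.19) and Siglece (-0.23 to 0.04), and in the conditional minus germline effect for Siglecf (-0.18 to 0.58), Cd22 (-0.32 to 1.18) and Cd33 (-0.29 to 0.14). Over all genes Cre against flox called 618 without the filter, 161 with DESeq2, 257 with limma voom, 3 with all 33 libraries and 952 without Cre replicate 1. With DESeq2-type size factors the median of all genes moved to 0.57 in the 9-month minus 3-month effect. Depth limits the low members: 1 WT library at 9 months had 605376 counts in genes, where 1 read of Siglec1 is 1.04 CPM.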
